A study of Mus musculus with 12 samples.

Results

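The arrays were asked whether gene expression differed with training in the same way in 2 brain regions, the hippocampus (HC) and the anterior cingulate cortex (ACC). The quantity described is the region by training difference, (HC trained minus HC control) minus (ACC trained minus ACC control). It was computed on the log2 scale for every gene, and it used all 12 of the 12 arrays and all 27381 of the 27381 genes measured. A positive value means that the trained pools stood higher against their controls in HC than in ACC, and a negative value the reverse. Because 4 group means enter it, it is less precise than a difference within a region, and its standard error (SE) had a median of 0.15 over genes.

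The mice were C57Bl6/J (spelled C57B16/J in the labels), operated on for head fixation at 8 to 12 weeks of age and given 7 days to recover. All were deprived of water and held with the head fixed on a ball that floated on air, so these conditions were shared by every group. Trained mice learned to answer a visual cue to obtain water and needed 27 ± 2.6 days to reach criterion (the labels do not say which error this is), and control mice were handled alike but received water at times unrelated to any cue. The groups were HC trained, HC control, ACC trained and ACC control, with 3 pools of RNA and 3 arrays each. A pool held RNA of 7 mice for HC and of 5 for ACC, which the sources do not state separately for batch 2. Pools 1 and 2 of each group belonged to batch 1 and pool 3 to batch 2, so each batch held all 4 groups. The labels list 34 mice, 16 male and 18 female. The methods give a larger total, describe the pools of a condition in the first experiment as unique, and state that blood, ACC and HC were all sampled from trained and control mice after training. Which mice entered which pool is not given in the sources used here, so HC and ACC pools may hold RNA of the same animals. The p-values measure the spread between pools only.

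ACC is a region of frontal cortex that takes part in attention, the weighing of effort and reward, and the recall of memories long after they form. The hippocampus, with its CA fields and dentate gyrus, is needed to form new memories of places and events. Both regions are made of excitatory and inhibitory neurons, glia and vessels, and RNA from whole tissue mixes them, so that fewer cells of a type and less RNA per cell cannot be told apart. An array value reports the brightness of a gene's probes on a log2 scale, where a difference of 1 is a doubling, and values of different genes are not compared. The odorant and vomeronasal receptor genes of the nose, 1365 in number, gave the background of the array, with a median level of 1.42. Their 95th percentile, 2.76, is called the background level here, and 16048 genes had a mean above it.

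The labelled regions fitted their markers. Prox1, which dentate granule neurons express, stood higher in HC than in ACC by 2.51 in trained and 2.56 in control pools, and Lamp5, a gene of cortical neurons, differed by −1.73 and −1.75. Arrays of 1 group correlated across genes at 0.994 to 0.995. Over 16 choroid plexus genes HC trained pool 2 had a mean of 3.95, less than the remaining HC pools (4.38 to 4.52), and ACC pools had 2.96 to 3.08. Over 18 oligodendrocyte and myelin genes ACC control pool 1 had a mean of 6.59, against 5.81 in ACC control pool 2 and 6.04 in ACC control pool 3. The mean of 3 Y-linked genes varied between pools, from 3.78 to 4.87 in HC trained, 3.96 to 5.04 in HC control, 3.89 to 5.11 in ACC trained and 3.38 to 3.59 in ACC control pools. These values overlapped between trained and control pools in HC, while in ACC all trained pools lay above all control pools. Their part in the results was examined only with a sex index as a covariate.

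For no gene did the region by training difference pass the correction for multiple comparisons. Of 27381 genes, 0 had an adjusted p under 0.05 (0%, limma), and the lowest value reached was 0.107. Without adjustment 2427 genes had a p under 0.05 (8.86% of all), of which 1377 (5.03%) were positive and 1050 (3.83%) negative. At an unadjusted p under 0.01 there were 700 (2.56%), with 415 positive (1.52%) and 285 negative (1.04%). The balance of directions depended on the scaling. Positive values made up 56.7% of the genes at an unadjusted p under 0.05 as deposited, 51.8% after quantile normalization and 30.4% with each array centred on its median. The array medians themselves gave a region by training difference of 0.06, and centring takes this from every gene.

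Over all genes the values were centred on 0, with a median of −0.004, a middle range (25th to 75th percentile) from −0.12 to 0.13 and an SD of 0.22. The central 95% lay between −0.41 and 0.46. Of the 700 genes at an unadjusted p under 0.01, 684 (97.7%) had opposite signs in HC and ACC. Their selection for a large difference between the regions nearly fixes this, and over all genes 27.2% were positive in HC and negative in ACC and 28.8% the reverse. The HC part was the larger in 364 of the 700 and the ACC part in 336. Dim genes carried many of them. The share at an unadjusted p under 0.05 was 9.55% of the 11333 genes below the background level, 12.1% of the 7375 genes between it and a level of 5, and 5.22% of the 8673 genes at 5 or above.

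**Figure D1:**
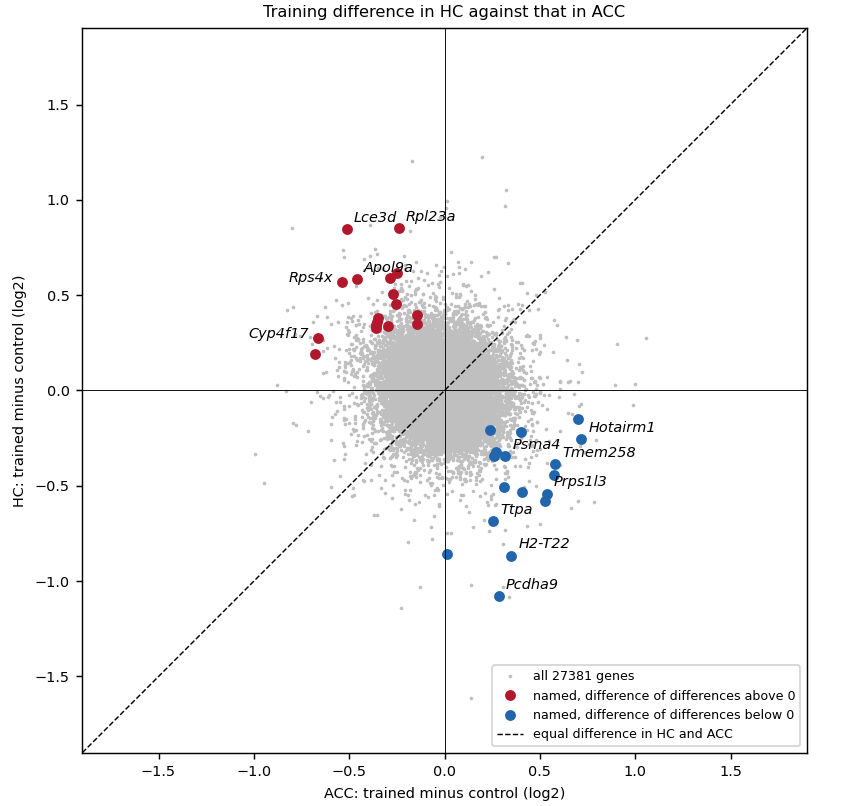
Trained minus control in HC (vertical axis, log2) against trained minus control in ACC (horizontal axis, log2), each point 1 gene, with all 27381 genes in grey and the 34 genes named by size, p or opposite differences in red (positive) and blue (negative). The dashed line marks an equal difference in both regions, and the named genes lie away from it at upper left (Lce3d at 0.85 in HC and −0.51 in ACC) and lower right (Pcdha9 at −1.08 in HC and 0.29 in ACC).

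Among genes with an established symbol and a level above background, 116 were positive and 153 negative at an unadjusted p under 0.01. The genes named next are the largest in each direction among these, those with the smallest p, and those with the clearest opposite differences. They number 34, and 31 of them had a mean level under 5. In 18 of the 34 the trained pools lay apart from the control pools in both regions, which follows in part from how they were chosen.

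The largest positive difference was that of Lce3d, a late cornified envelope gene of skin. It measured 3.68, 3.51 and 3.91 in HC trained pools, against 2.99, 2.57 and 3.01 in HC control pools. In ACC it measured 3.14, 3.44 and 2.88 in trained pools, against 3.49, 3.69 and 3.83 in control pools. The trained pools thus lay above all controls in HC and below all controls in ACC. The region by training difference was 1.36 (SE 0.23, 95% interval 0.86 to 1.85, adjusted p = 0.170 from limma), with 1.11 in batch 1 and 1.85 in batch 2.

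Apol9a, an apolipoprotein L gene with close relatives in the mouse genome, behaved alike. Its values were 4.77, 4.71 and 4.62 in HC trained pools and 4.33, 3.98 and 4.04 in HC control pools. In ACC trained pools they were 4.23, 4.57 and 4.51, against 4.71, 5.17 and 4.81 in ACC control pools. No trained pool overlapped a control pool in either region, and the region by training difference was 1.05 (SE 0.19, adjusted p = 0.221), 0.59 of it from HC and −0.46 from ACC.

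Foxa2 encodes a forkhead transcription factor of endoderm, the floor plate and midbrain dopamine neurons. Its log2 values were 3.78, 3.80 and 3.77 in HC trained pools, against 3.47, 3.32 and 3.38 in HC control pools. In ACC they were 3.63, 3.73 and 3.76 in trained pools, against 3.92, 3.77 and 3.87 in control pools. The HC pools were well apart, and in ACC the highest trained and the lowest control pool almost met. The difference was 0.54 (SE 0.10, adjusted p = 0.237), with 0.56 in batch 1 and 0.50 in batch 2.

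Wfdc13, of the whey acidic protein family of protease inhibitors, measured 3.62, 3.76 and 3.82 in HC trained pools and 3.38, 3.40 and 3.39 in HC control pools. In ACC it measured 3.55, 3.47 and 3.30 in trained and 3.81, 3.74 and 3.67 in control pools. The groups did not overlap in either region, and the difference was 0.64 (SE 0.12, adjusted p = 0.237). Tmem37, a membrane protein related to calcium channel gamma subunits, had the smallest SE of the positive genes named. It was 3.21, 3.22 and 3.19 in HC trained pools, against 2.84, 2.84 and 2.90 in HC control pools, and 3.16, 3.08 and 3.12 in ACC trained pools, against 3.25, 3.24 and 3.31 in ACC control pools. Its difference was 0.49 (SE 0.09, adjusted p = 0.237), mostly from HC (0.35, against −0.15 in ACC).

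The other positive genes divide by the region that gave most of the difference. In HC it was larger for Tff3, a trefoil factor of mucus-secreting epithelia (0.61 in HC and −0.25 in ACC, region by training difference 0.87), for the sperm acrosome gene Spaca4 (0.59 and −0.29), and for Fndc1, which has fibronectin domains (0.45 and −0.25). In ACC it was larger for Cyp4f17, a cytochrome P450 of fatty acid hydroxylation (0.27 in HC and −0.66 in ACC), and for the gasdermin gene Gsdmcl1 (0.19 and −0.68). In both of these the ACC pools did not overlap and the HC pools did. Prss33, a serine protease, and Nphs1, which encodes the kidney slit protein nephrin, had nearly equal parts (0.33 and −0.36, 0.35 and −0.36). Styx, a phosphatase homolog without catalytic activity, measured 5.38 to 6.49 over all pools and had a difference of 0.73 (SE 0.21, adjusted p = 0.357). Psapl1 stood at 0.77 and the trypsin gene Try4 at 0.71, and the ribosomal protein genes Rps4x (1.10) and Rpl23a (1.09), next in size to Lce3d, are described with their family. None of these genes had an adjusted p under 0.05.

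Among negative genes with small p, Psma4 encodes an alpha subunit of the proteasome core, the particle that degrades ubiquitin-tagged proteins. It measured 5.40, 5.48 and 5.25 in HC trained pools, against 5.71, 5.76 and 5.68 in HC control pools. In ACC it measured 5.56, 5.60 and 5.55 in trained pools, against 5.37, 5.07 and 5.32 in control pools. Trained pools lay below all controls in HC and above all controls in ACC. The region by training difference was −0.66 (SE 0.13, 95% interval −0.94 to −0.39, adjusted p = 0.239 from limma), and it was −0.66 in batch 1 and −0.67 in batch 2.

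Dlx6, a homeobox gene of developing GABAergic interneurons, showed the same arrangement. It was 4.02, 3.96 and 3.96 in HC trained pools, against 4.24, 4.37 and 4.30 in HC control pools. In ACC trained pools it was 4.36, 4.60 and 4.43, against 4.21, 4.11 and 4.26 in ACC control pools. Its difference was −0.59 (SE 0.11, adjusted p = 0.237), made of −0.32 in HC and 0.27 in ACC.

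Ctdsp1, a phosphatase of RNA polymerase II and of the complex that silences neuronal genes outside neurons, measured 5.17, 5.15 and 5.03 in HC trained and 5.61, 5.42 and 5.35 in HC control pools. The ACC values were 4.87, 5.04 and 5.00 in trained and 4.69, 4.67 and 4.77 in control pools. The groups were apart in both regions, in opposite order, and the difference was −0.60 (SE 0.12, adjusted p = 0.271). Fgl2, a fibrinogen-like protein, was nearly constant within ACC, with 4.13, 4.12 and 4.13 in trained and 3.79, 3.70 and 3.69 in control pools. In HC it was 3.94, 4.15 and 4.02 in trained and 4.22, 4.15 and 4.38 in control pools, where the highest trained pool and the lowest control pool nearly touched. Its difference was −0.62 (SE 0.12, adjusted p = 0.237), with more of it from ACC (0.40) than from HC (−0.22).

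Ttpa, the transfer protein of vitamin E, had a difference of −0.94 (SE 0.18, adjusted p = 0.237), mostly from HC, where trained pools averaged 2.69 ± 0.25 and control pools 3.38 ± 0.08 (SD, n = 3 each). In ACC it was 2.86, 2.79 and 3.12 in trained and 2.70, 2.78 and 2.52 in control pools, so that the groups there lay close together. Many of its values were near the background level. Pik3ap1, an adaptor between immune receptors and PI3 kinase, differed by only −0.45 but without overlap in either region.

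**Figure D2:**
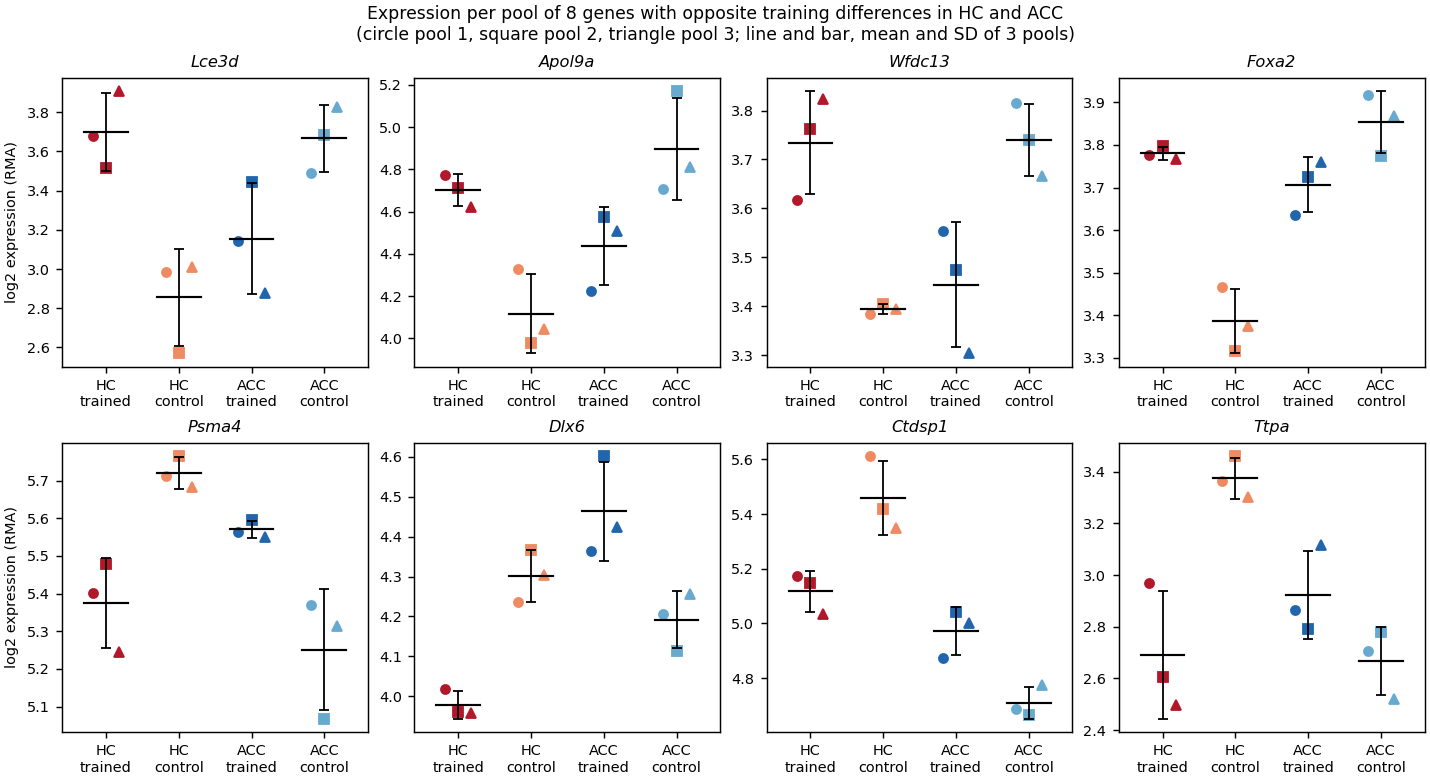
Log2 expression (vertical axes, a separate scale for each gene) of 8 genes in each pool of HC trained, HC control, ACC trained and ACC control, with symbols for pools 1, 2 and 3, and lines and bars for the mean and SD of 3 pools. In the upper row the trained pools lie above the controls in HC and below them in ACC (Lce3d 3.51 to 3.91 against 2.57 to 3.01 in HC), and in the lower row the order is reversed (Psma4 5.25 to 5.48 against 5.68 to 5.76 in HC).

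The largest negative values were those of genes with more spread between pools. Pcdha9, treated with its family below, stood at −1.37 and H2-T22, a nonclassical class I gene of the histocompatibility complex, at −1.21 (SE 0.37, adjusted p = 0.368). Prps1l3, related to the enzyme that makes the ribose precursor of nucleotides, was apart in both regions, with 3.91 to 4.48 in HC trained against 4.50 to 4.86 in HC control pools and 4.18 to 4.26 in ACC trained against 3.45 to 4.02 in ACC control pools. Its difference was −1.08 (SE 0.23, adjusted p = 0.273). Tmem258, a subunit of the enzyme complex that attaches N-linked sugars, was also apart in both regions, by a narrow margin in HC (4.52 to 5.03 in trained against 5.04 to 5.16 in control pools), and differed by −0.97 (SE 0.23).

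Hotairm1, transcribed without a protein product beside the HoxA genes, owed most of its −0.97 to ACC (0.72, against −0.26 in HC). The KRAB-type zinc finger gene Zfp946 did so as well (0.70 and −0.15, difference −0.85), while Zfp811 (−0.53 in HC and 0.41 in ACC) and Zfp617 (−0.51 and 0.31) had larger parts in HC. For Zfp617 it measured −1.19 in batch 1 but −0.08 in batch 2. Mcts2, a retrogene copy of a translation factor, stood at −1.11 and Gon7, a subunit of a tRNA-modifying complex, at −1.01, and in both genes trained and control pools overlapped in both regions. Genes with close copies, among them Apol9a, Gsdmcl1, Try4, Prps1l3, H2-T22, Mcts2 and the zinc finger genes, may share probes with relatives, and their values are less certain.

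Opposite differences were counted over all genes with the moderated t of limma. Above 2 in HC and below −2 in ACC lay 179 genes (0.654% of all), and below −2 in HC and above 2 in ACC 114 (0.416%). With each array centred on its median this balance was the reverse, with 89 and 212 genes. Among genes with an established symbol and a level above background these numbers were 52 and 69. By pools, 169 genes (0.617%) had every trained pool above every control pool in HC and below every control pool in ACC, and 134 (0.489%) the reverse. In the same direction without overlap in both regions there were 57 higher (0.208%) and 65 lower (0.237%) in trained pools. The 4 groups of arrays are separate in these counts, since HC and ACC had control pools of their own. The regions may still not be independent, as HC and ACC pools may hold RNA of the same animals. With no threshold, 27.2% of all genes had a positive difference in HC and a negative one in ACC, and 28.8% the reverse.

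The batches were compared, since each held all groups. Over all 27381 genes the region by training difference of batch 1 (2 pools a group) and that of batch 2 (1 pool a group) correlated at r = 0.05 (Spearman rho 0.03), with r = 0.04 over the genes above background. Genes share arrays and are not independent, so this is a description. The sign was the same in 50.6% of genes. The SD over genes was 0.27 in batch 1 and 0.34 in batch 2. All 34 genes named above, and 696 of the 700 genes at an unadjusted p under 0.01, had the same sign in both batches, but these were chosen on the arrays of both. By level, r was 0.06 below background, 0.06 from there to a level of 5, and −0.02 above it.

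**Figure D3:**
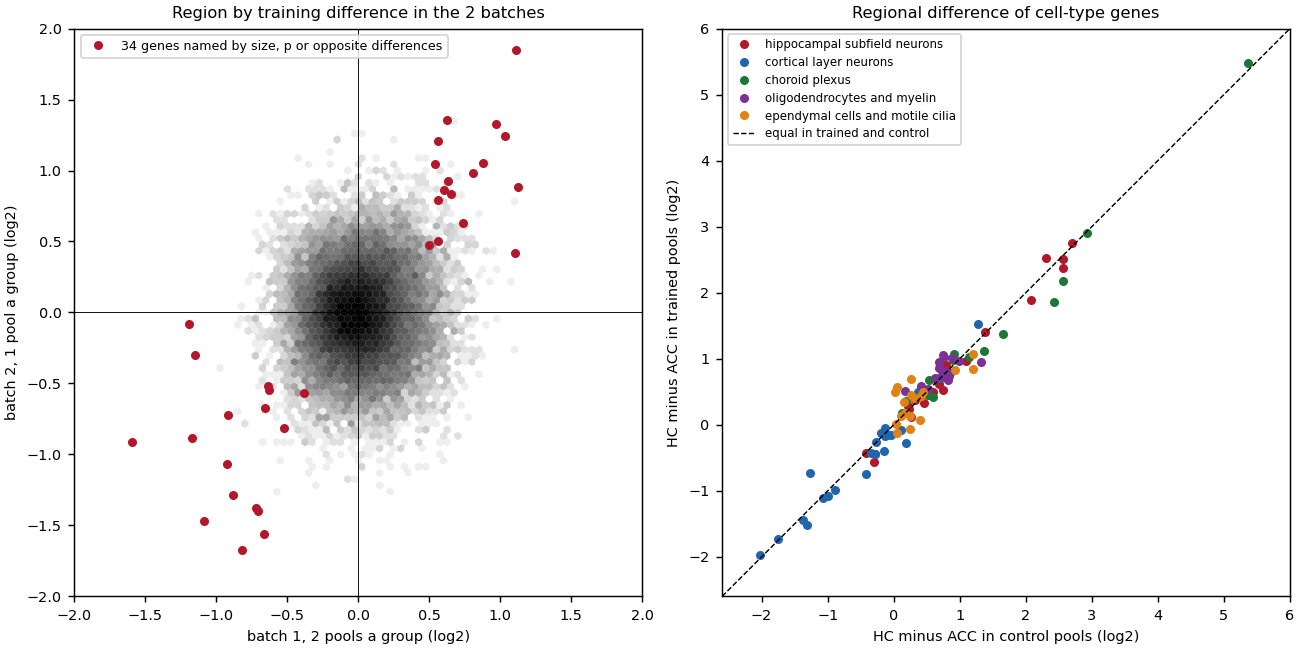
Left, the region by training difference (log2) in batch 2 against batch 1 for all genes (grey, darker where genes are denser) and the 34 named genes (red), which all lie in the quadrants of equal sign while the whole cloud shows little slope (r = 0.05). Right, HC minus ACC (log2) in trained pools against control pools for the genes of 5 cell-type lists, which lie along the line of equality, Ttr highest at 5.48 in trained and 5.36 in control pools.

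The genes of 35 lists were described next, 843 measured genes of 942 listed. Each list is given by how many of its members were positive or negative at an unadjusted p under 0.05, to be set against 5.03% and 3.83% of all genes, and by its median, to be set against −0.004. These backgrounds depended on level. Over the genes above background the median was −0.03 and 4.24% were negative at an unadjusted p under 0.05. In either direction the share was 12.1% between background and a level of 5, and 5.22% at 5 or above. Small list medians and counts may thus be those of genes of like level. Apart from the sex-linked genes, the list medians ran from −0.13 to 0.14. Values above 0 are to be set against 49% of all genes. No member of any list had an adjusted p under 0.05.

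**Figure D4:**
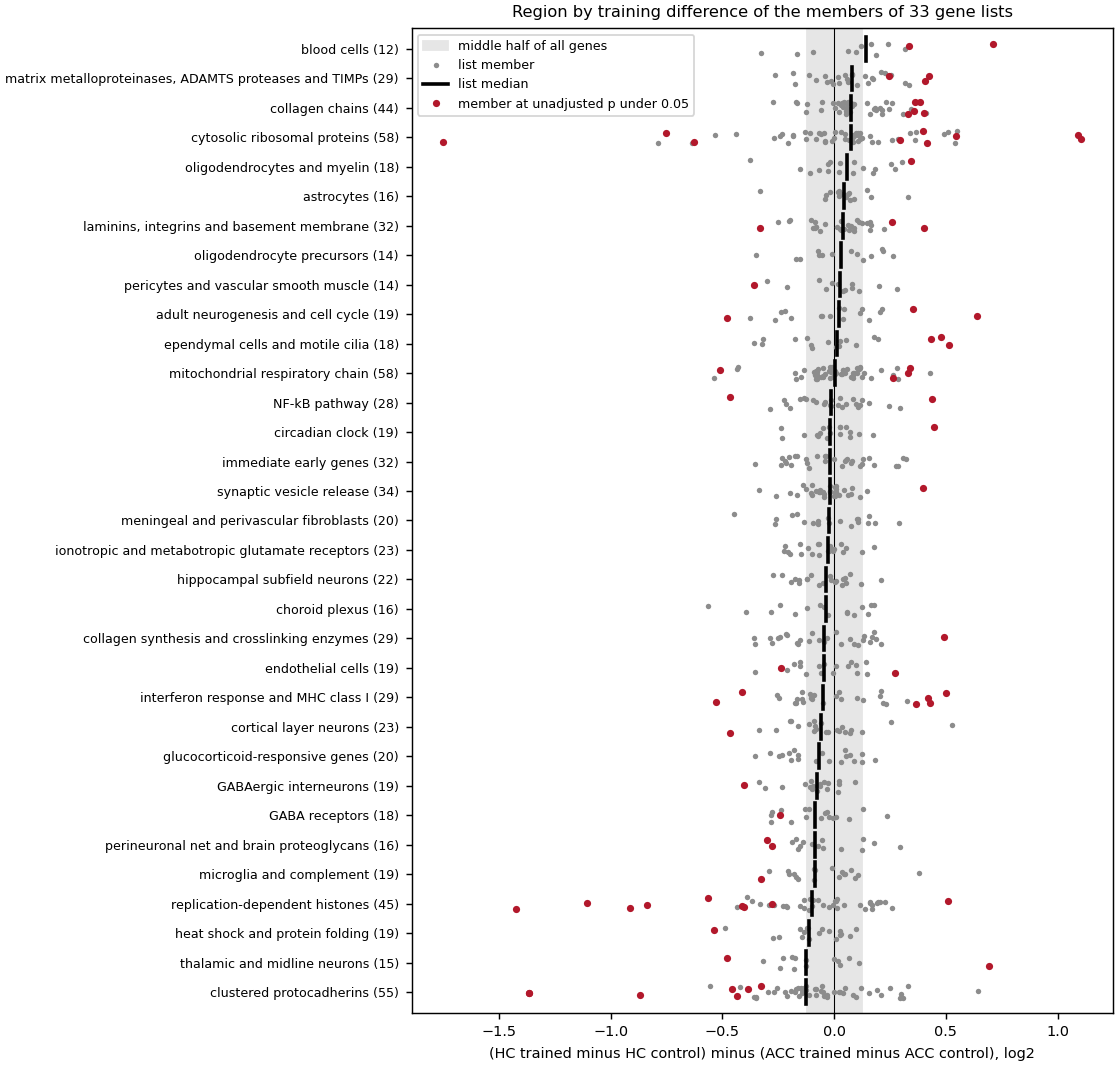
Region by training difference (log2, horizontal axis) of every measured member of 33 gene lists, with the number of measured members in brackets, black bars for list medians, red points for members at an unadjusted p under 0.05 and a grey band for the middle range of all genes (−0.12 to 0.13). The clustered protocadherins (−0.13) and histones (−0.10) extend to the left and the collagen chains (0.08) lie slightly to the right.

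Collagens are the triple-helical proteins of the extracellular matrix, made in brain by meningeal, vascular and some neural cells. Of 44 collagen chain genes, 5 were positive and 0 negative at an unadjusted p under 0.05, 36 had a positive value and the median was 0.08. The 5 were the fibril-forming chains Col11a1 and Col11a2, the anchoring chain Col7a1, the basement membrane zone chain Col15a1 and the transmembrane chain Col17a1. Col11a1 measured 3.26, 2.95 and 3.01 in HC trained pools, against 2.78, 2.82 and 2.80 in HC control pools, and 2.67, 2.72 and 2.68 in ACC trained pools, against 2.76, 2.82 and 2.89 in ACC control pools. Without overlap in either region, its difference was 0.40 (SE 0.12, adjusted p = 0.365).

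Col11a2 (0.38) and Col7a1 (0.36) were apart only in ACC. Col7a1 measured 3.12, 3.21 and 3.24 in ACC trained pools, against 3.54, 3.48 and 3.41 in ACC control pools, and 3.08, 3.19 and 3.02 in HC trained pools, against 2.94, 2.99 and 3.16 in HC control pools. Col17a1 (0.33) was apart only in HC, with 3.21, 3.34 and 3.25 in trained against 2.92, 2.85 and 3.16 in control pools. These chains were near background, with mean levels of 2.85 to 3.78. Of the abundant chains of fibrous tissue, Col1a1 stood at −0.17 (SE 0.16), Col1a2 at 0.07 (SE 0.13) and Col3a1 at 0.05 (SE 0.26). The SEs of Col1a2 and Col3a1 are wide enough to hold a value as high as that of Col17a1.

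The positive collagen median was small and differed between batches. The list median was 0.17 in batch 1 and 0.01 in batch 2, and it ran from 0.07 to 0.15 with an array left out. With each array centred on its median it was 0.02, against −0.06 over all genes. In 20 of 44 chains the value was positive in both batches and in 2 negative in both. The enzymes that modify and crosslink collagen had 1 positive and 0 negative of 29 and a median of −0.05. Loxl4, a lysyl oxidase, was the positive one at 0.49, with 0.81 in batch 1 and −0.15 in batch 2. Among matrix metalloproteinases, ADAMTS proteases and their inhibitors 3 of 29 were positive and 0 negative, the median was 0.08, and Mmp9, the gelatinase that neurons secrete during plasticity, led them. Mmp9 measured 2.94, 2.86 and 2.90 in ACC trained pools, against 3.25, 3.30 and 3.25 in ACC control pools, while HC trained pools (2.67 to 3.07) overlapped HC control pools (2.74 to 2.97). Its difference was 0.41 (SE 0.14, adjusted p = 0.408).

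Laminins, integrins and basement membrane genes had 2 positive (Itga11 and the perlecan gene Hspg2) and 1 negative (Itgb3) of 32, with a median of 0.04. Of 16 genes of the perineuronal net, the matrix around inhibitory neurons, 0 were positive and 2 negative, the link proteins Hapln1 (−0.28) and Hapln3 (−0.30), with a median of −0.08. Markers of the cells that make matrix were examined beside them. Of 20 genes of meningeal and perivascular fibroblasts 0 passed at an unadjusted p under 0.05 in either direction, with a median of −0.02. Their mean level was 5.19 to 5.25 in HC trained, 5.23 to 5.33 in HC control, 4.66 to 5.04 in ACC trained and 4.75 to 4.95 in ACC control pools, and their part in the collagen values was not tested.

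The replication-dependent histones package newly made DNA. Their genes lie in clusters and most of their messages end without a poly(A) tail. Of 45 measured histone genes, 8 were negative and 1, H3c8, positive at an unadjusted p under 0.05, the median was −0.10, and 28 of 45 had a negative value. With an array left out the median ran from −0.14 to −0.02, nearest to 0 without HC trained pool 3. The mean of the list was 2.89 to 2.93 in HC trained pools, below the 2.98 to 3.04 of HC control pools, and it was 2.80 to 2.94 in ACC trained and 2.80 to 2.89 in ACC control pools. Only 19 of the 45 had a mean level above background, and copies of a histone type resemble each other closely, so these values are uncertain gene by gene.

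H2ac6, an H2A gene, had the smallest p of all list members. It measured 1.33, 1.23 and 1.47 in HC trained pools, against 2.73, 2.21 and 2.35 in HC control pools, and 2.12, 1.72 and 1.81 in ACC trained pools, against 1.89, 1.33 and 1.41 in ACC control pools. All HC trained pools were below all HC controls, and the ACC pools overlapped. Each of its 12 values was below the background level. The difference was −1.42 (SE 0.23, 95% interval −1.93 to −0.91, adjusted p = 0.170 from limma), and it was −1.50 in batch 1 and −1.27 in batch 2.

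H2ac4, a second H2A gene, was apart in both regions, with 1.73, 2.01 and 1.99 in HC trained against 2.38, 2.25 and 2.31 in HC control pools, and 1.98, 2.20 and 2.25 in ACC trained against 1.95, 1.46 and 1.71 in ACC control pools. Its difference was −0.84 (SE 0.18, adjusted p = 0.273). H2bc15, an H2B gene above background, averaged 3.06 (SD 0.22) over HC trained pools, all below the HC control pools with 4.20 (SD 0.18). In ACC it overlapped (3.59 to 4.34 in trained and 3.93 to 4.66 in control pools), the difference was −0.91 (SE 0.30), and it was −0.48 in batch 1 and −1.77 in batch 2. The H4 genes H4c9 and H4c11 stood at −1.11 (SE 0.43) and −0.57 (SE 0.18), with −0.30 and −0.07 in batch 2. H2bc12 (−0.40), H4c8 (−0.41) and H3c1 (−0.28) were the others.

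Histone promoters carry short elements, among them CCAAT boxes, bound by NF-Y, and the TATA box. The promoters of the 3 histone genes described in most detail are shown because these genes had the same direction on the array, lower in HC trained than in HC control pools. They are 300 bases long, most of them upstream of the start of the gene, 5′ to 3′ on the gene's strand, from RefSeq on GRCm38.p6, and all lie in the histone cluster of chromosome 13. H2ac6 is at chr13:23683910-23684209 (minus strand), H2ac4 at chr13:23750838-23751137 (plus strand) and H2bc15 at chr13:21753826-21754125 (plus strand). Capitals mark CCAAT or TATAAA, searched on both strands, so that the same motifs on the other strand read ATTGG and TTTATA. The TTTATA marked in H2bc15 is also the TATAAA of the overlapping promoter of the neighbouring H2ac15, which runs on the opposite strand.
H2ac6: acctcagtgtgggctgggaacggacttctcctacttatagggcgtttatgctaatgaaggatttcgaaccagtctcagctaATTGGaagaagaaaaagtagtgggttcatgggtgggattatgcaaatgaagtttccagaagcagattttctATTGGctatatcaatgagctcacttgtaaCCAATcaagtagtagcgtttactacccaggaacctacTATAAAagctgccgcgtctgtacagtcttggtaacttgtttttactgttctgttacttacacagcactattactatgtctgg
H2ac4: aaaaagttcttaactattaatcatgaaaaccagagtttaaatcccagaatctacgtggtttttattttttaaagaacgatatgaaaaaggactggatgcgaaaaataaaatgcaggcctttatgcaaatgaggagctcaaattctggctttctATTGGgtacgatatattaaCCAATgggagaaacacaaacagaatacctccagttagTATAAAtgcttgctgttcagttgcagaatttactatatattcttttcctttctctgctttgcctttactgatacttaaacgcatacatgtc
H2bc15: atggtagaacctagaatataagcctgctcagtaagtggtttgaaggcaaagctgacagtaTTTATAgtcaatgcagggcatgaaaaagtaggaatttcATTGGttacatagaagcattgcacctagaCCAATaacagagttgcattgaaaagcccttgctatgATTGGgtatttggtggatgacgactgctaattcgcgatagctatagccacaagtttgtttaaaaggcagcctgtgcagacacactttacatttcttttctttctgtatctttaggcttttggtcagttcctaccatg
Of 32851 promoters of this length, 37.4% held CCAAT, 13.6% TATAAA and 5.31% both. Of 42 promoters of measured histone genes, among which H2bc6 appears more than once, 85.7% held CCAAT, 66.7% TATAAA and 57.1% both. Among the 7 of them whose genes were negative at an unadjusted p under 0.05, 4 held CCAAT, 6 TATAAA and 4 both. These counts took either strand and any place in the promoter, so a TATAAA counted here need not be the TATA box of the gene. The motifs are common in the family as a whole, and their frequency in the 7 genes was not tested.

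**Figure D5:**
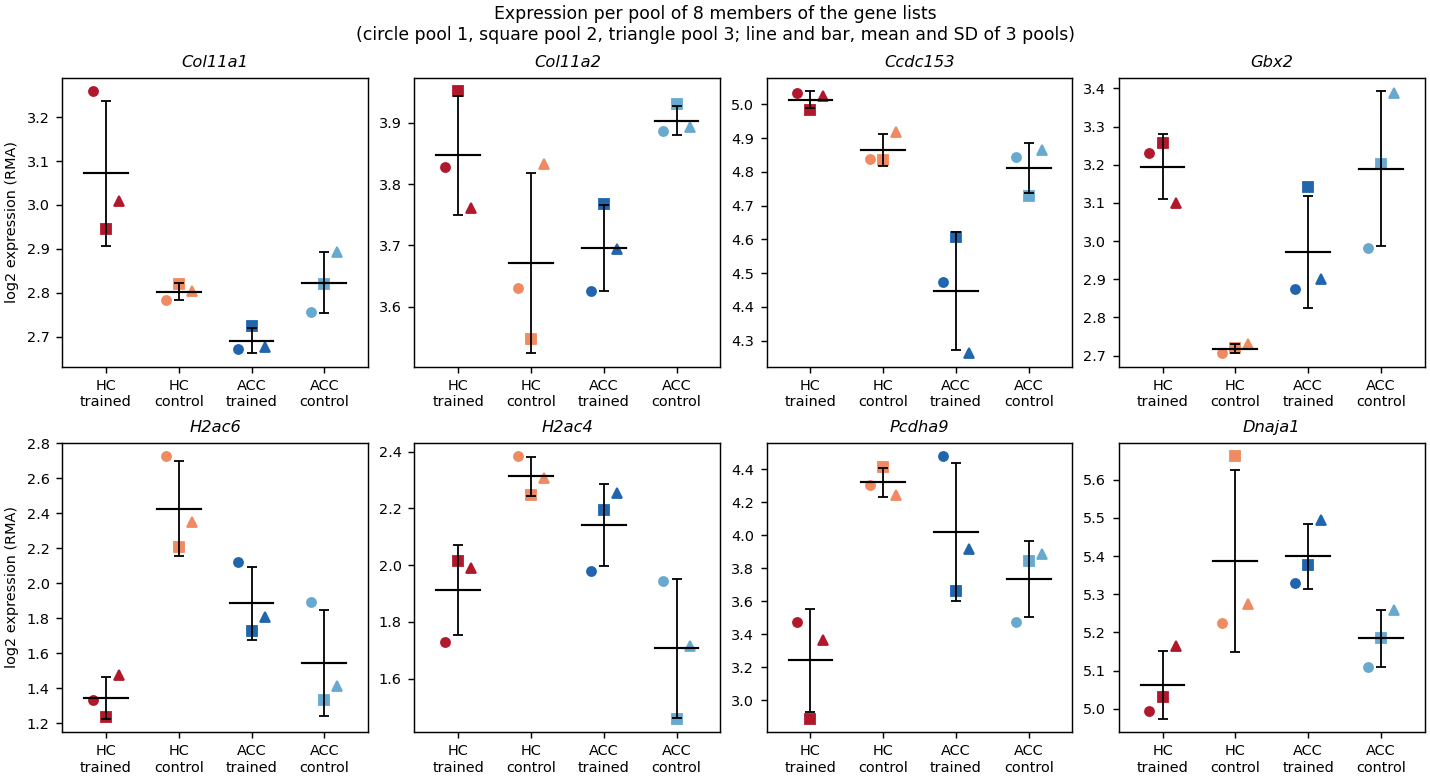
Log2 expression (vertical axes, a separate scale for each gene) of 8 list members in each pool of HC trained, HC control, ACC trained and ACC control, with symbols for pools 1, 2 and 3, and lines and bars for the mean and SD of 3 pools. Col11a1, Ccdc153 and Gbx2 are higher in HC trained than in HC control pools, while H2ac6, H2ac4 and Pcdha9 are lower (H2ac6 1.23 to 1.47 against 2.21 to 2.73).

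The clustered protocadherins are cell adhesion molecules whose alpha, beta and gamma genes are chosen by promoter and give single neurons a surface identity. Of 55 measured members, 0 were positive and 7 negative at an unadjusted p under 0.05, the median was −0.13, and 38 had a negative value. The median was −0.16 in batch 1 and −0.09 in batch 2. It was −0.06 without HC trained pool 2 and also without ACC control pool 2, and −0.19 without ACC trained pool 2. Members of the alpha and of the gamma cluster share their last exons, and beta members resemble one another, so probes may not separate them. The mean of the list was 4.41 to 4.64 in HC trained, 4.62 to 4.68 in HC control, 4.58 to 4.69 in ACC trained and 4.59 to 4.64 in ACC control pools.

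Pcdha9 measured 3.47, 2.89 and 3.36 in HC trained pools, against 4.30, 4.41 and 4.25 in HC control pools, and 4.48, 3.66 and 3.92 in ACC trained pools, against 3.47, 3.85 and 3.89 in ACC control pools. The HC groups were far apart and the ACC groups overlapped. Its difference was −1.37 (SE 0.28, adjusted p = 0.271), with −1.59 in batch 1 and −0.91 in batch 2. The neighbouring Pcdha8 measured 2.45, 2.13 and 2.71 in HC trained and 3.22, 3.34 and 3.30 in HC control pools, with no difference in ACC (0.01), and stood at −0.87 (SE 0.24, adjusted p = 0.337).

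Pcdhac2, the C-type alpha gene that serotonergic neurons use, was well above background. It measured 6.67, 6.48 and 6.81 in HC trained pools, against 6.92, 7.08 and 7.00 in HC control pools, and 7.15, 7.27 and 7.38 in ACC trained pools, against 7.27, 7.05 and 7.13 in ACC control pools. The HC trained pools lay below the controls, and the difference was −0.46 (SE 0.14, adjusted p = 0.370). Pcdhga6 was as large as Pcdha9 at −1.37, but its SE was 0.48, and batch 1 gave −2.07 where batch 2 gave 0.03. Pcdhgc5 (−0.44), Pcdhb15 (−0.38) and Pcdhb19 (−0.33) made up the 7.

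Of 58 cytosolic ribosomal protein genes, 6 were positive and 3 negative, with a median of 0.08. It was 0.02 without HC trained pool 2 and also without ACC trained pool 3, and 0.02 after median centring, against −0.06 over all genes. Single members were far apart. Rpl6 stood at −1.75 (SE 0.49, adjusted p = 0.340), with 1.85, 1.06 and 1.95 in HC trained pools against 3.61, 2.47 and 3.61 in HC control pools. Rps4x stood at 1.10 and Rpl23a at 1.09. Rpl23a measured 3.79, 4.26 and 3.80 in HC trained pools against 3.57, 2.94 and 2.80 in HC control pools, and overlapped in ACC. Genes of this family have many processed copies in the genome, and these values at low level are uncertain. Rplp1, with a mean level of 9.69, stood at 0.40 (SE 0.14). Of 58 genes of the respiratory chain in mitochondria, 3 were positive (Cox4i1, Cox6c and Cyc1) and 1 negative (Ndufb11), with a median of 0.004.

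Interferon-response and class I genes gave 4 positive and 2 negative of 29, with a median of −0.05. Psmb8 and Psmb9, catalytic subunits of the immunoproteasome that cuts peptides for class I presentation, were both positive. Psmb8 measured 3.68, 3.58 and 3.52 in ACC trained pools, against 3.82, 3.84 and 3.88 in ACC control pools, and overlapped in HC, and more of its 0.42 (SE 0.11, adjusted p = 0.337) came from ACC (−0.25) than from HC (0.17). Psmb9 measured 3.05, 3.20 and 2.89 in HC trained pools, against 2.47 to 2.70 in HC control pools, and overlapped in ACC, so its 0.43 (SE 0.14) came from HC. The antiviral gene Rsad2 (0.37) and Ifi27 (0.50) were the other positive ones, and Mx1 (−0.41) and H2-K1 (−0.53) the negative ones. In the NF-kB pathway, which carries inflammatory signals, 1 of 28 was positive (Relb, 0.44, SE 0.19) and 1 negative (Rel, −0.47, SE 0.18), with a median of −0.02. Of 19 genes of microglia and complement 0 were positive and 1 was negative, Gpr34 (−0.33), and the median was −0.09, and 0.004 without ACC trained pool 1.

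Immediate early genes are transcribed within minutes of neuronal activity. Of 32, none was positive and none negative at an unadjusted p under 0.05, with a median of −0.02. Fos had a difference of 0.08 (SE 0.24, 95% interval −0.44 to 0.60), Egr1 of −0.20 (SE 0.15, 95% interval −0.52 to 0.11) and Npas4 of 0.31 (SE 0.22, 95% interval −0.16 to 0.78). These intervals are wide enough to hold differences larger than the SD over all genes (0.22). The paper states that tissue was taken within a day of criterion performance. Whether these values reflect activity during the task was not tested. Glutamate receptors had 0 in either direction of 23, with 18 of 23 negative and a median of −0.03. GABA receptors had 14 of 18 values negative, a median of −0.08, and 0 positive and 1 negative at an unadjusted p under 0.05. This was Gabrg3 (−0.24, SE 0.10), which was apart in both regions with 6.14 to 6.30 in HC trained against 6.31 to 6.38 in HC control pools and 6.84 to 6.94 in ACC trained against 6.74 to 6.83 in ACC control pools. Its sister Gabra3 differed by −0.28 (SE 0.13). Of the synaptic vesicle genes, 1 of 34 was positive, Syt12 (0.40), with a median of −0.02.

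Markers of neurons by region gave few calls. None of 22 hippocampal subfield genes and 1 of 23 cortical layer genes passed at an unadjusted p under 0.05, with medians of −0.03 and −0.06. This gene was Ntsr1, the neurotensin receptor of layer 6 corticothalamic neurons, which measured 4.90, 4.76 and 4.77 in HC trained pools, against 4.83, 5.08 and 4.88 in HC control pools, and 5.21, 5.02 and 5.02 in ACC trained pools, against 4.84, 4.63 and 4.74 in ACC control pools. The ACC pools did not overlap, the HC pools did, and the difference was −0.46 (SE 0.13, adjusted p = 0.340). Among GABAergic interneuron genes 15 of 19 were negative in value, the median was −0.08 and 1 passed, Ndnf (−0.40, SE 0.19). Pvalb, the calcium buffer of fast-spiking interneurons, stood at −0.34 (SE 0.16).

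Of 15 genes of thalamic and midline neurons, 10 had a negative value and the median was −0.12, with −0.20 to −0.10 when an array was left out, while 1 gene was positive and 1 negative at an unadjusted p under 0.05. Gbx2, a homeobox gene of the developing thalamus, measured 3.23, 3.26 and 3.10 in HC trained pools, against 2.71, 2.72 and 2.73 in HC control pools, and 2.87, 3.14 and 2.90 in ACC trained pools, against 2.98, 3.20 and 3.39 in ACC control pools. The HC groups were apart and the ACC groups overlapped, and the difference was 0.70 (SE 0.15, adjusted p = 0.273). Calb2, which encodes calretinin and marks both midline thalamus and young granule neurons, went the other way at −0.48 (SE 0.19). In the list for adult neurogenesis, the birth of granule neurons in the dentate gyrus, 2 of 19 were positive and 1 negative, with a median of 0.02. Eomes, a transcription factor of intermediate progenitors, was positive at 0.64 (SE 0.18, adjusted p = 0.342), with 2.64, 2.46 and 2.79 in HC trained pools against 2.17, 2.44 and 1.91 in HC control pools, values at or below background. Cdc20 was the other positive one, and Calb2 the negative one.

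Ependymal cells line the ventricles and beat cilia. Of 18 ependymal and cilia genes, 3 were positive and 0 negative, with a median of 0.01. Ccdc153, a ciliary gene, measured 5.03, 4.98 and 5.02 in HC trained pools, against 4.84, 4.83 and 4.92 in HC control pools, and 4.47, 4.61 and 4.26 in ACC trained pools, against 4.84, 4.73 and 4.86 in ACC control pools. No groups overlapped, and the difference was 0.51 (SE 0.13, adjusted p = 0.314), more of it from ACC (−0.36) than from HC (0.15). Dnah11, a dynein heavy chain (0.48), and Rsph1, of the radial spoke (0.43), were the others. Foxj1, the master regulator of motile cilia, stood at 0.05, and the mean of the list overlapped between trained and control pools in HC (3.26 to 3.39 and 3.29 to 3.42) and in ACC (2.87 to 2.99 and 2.95 to 3.01).

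Blood cell genes had the highest list median, 0.14, with 2 positive and 0 negative of 12. These were S100a9 (0.71, SE 0.15, adjusted p = 0.273) and S100a8 (0.34), partners in neutrophil calprotectin. S100a9 measured 2.02, 1.91 and 2.29 in HC trained pools, against 1.69, 1.70 and 1.67 in HC control pools, and 1.82, 2.07 and 1.76 in ACC trained pools, against 2.27, 2.22 and 2.13 in ACC control pools. The groups did not overlap in either region. Both genes lay below background, as did 8 of the 12, and over those above background the median of the list was 0.002.

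In the remaining lists, 1 of 19 circadian genes was positive, Nfil3 (0.45, SE 0.15), with a median of −0.02. Of 19 heat shock genes 13 had a negative value, the median was −0.11 (−0.03 without ACC trained pool 2), and 1 was negative at an unadjusted p under 0.05, the co-chaperone Dnaja1. Dnaja1 measured 4.99, 5.03 and 5.16 in HC trained pools, against 5.22, 5.66 and 5.28 in HC control pools, and 5.33, 5.38 and 5.49 in ACC trained pools, against 5.11, 5.19 and 5.26 in ACC control pools. It was apart in both regions, with a difference of −0.54 (SE 0.15, adjusted p = 0.344). Rgs5, which marks pericytes, was the 1 negative gene of 14 in its list (−0.36, SE 0.12), whose median was 0.03. Endothelial genes had 1 positive (Egfl7) and 1 negative (Cdh5) of 19, with a median of −0.05, and oligodendrocyte genes 1 positive (Gjb1, 0.35) of 18, with a median of 0.06. With an array left out the oligodendrocyte median ran from −0.12 to 0.23. No gene passed in either direction among 16 of astrocytes (median 0.05), 14 of oligodendrocyte precursors (0.03), 16 of the choroid plexus (−0.04) and 20 that respond to glucocorticoids (−0.07). The choroid plexus median was 0.11 without HC trained pool 2.

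The sex-linked genes had the largest list median in size, −0.82 over 4 genes, none of them at an unadjusted p under 0.05. Eif2s3y stood at −1.07 (SE 0.50), Kdm5d at −0.86 (SE 0.42), Uty at −0.79 (SE 0.60) and Xist at 0.60 (SE 0.55). With a sex index made of these same genes as a covariate Uty and Xist changed sign (0.09 and −0.20). This says little about them, since the index holds their own values. Of the 162 genes named, 19 moved by over 1.5 times in that fit, among them Loxl4 (0.30), Npas4 (0.15), Ikbkb (0.21) and Hsp90aa1 (−0.83). None of the 34 genes named by size, p or opposite differences was among the 19, and their values were 0.77 to 1.18 times those without the index. In that fit 2424 genes had an unadjusted p under 0.05.

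Of 7 genes that the study names, 6 were measured here, and Impdh2 is not analysed here. None of the 6 had an unadjusted p under 0.05, and their median was 0.04. Dnase1l2, an enzyme of the DNase I family, stood at 0.28 (SE 0.24), Irf8, a transcription factor of microglia and myeloid cells, at 0.11 (SE 0.21), and Ikbkb, the kinase that activates NF-kB, at 0.10 (SE 0.13). Ywhaz, Nfkb2 and Card6 lay at −0.04, −0.02 and −0.01, and the 95% interval of Card6 reached from −0.47 to 0.44. The data do not resolve differences inside such an interval.

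The same quantity can be read as the regional difference of trained mice minus that of control mice. HC differed from ACC at an adjusted p under 0.05 for 2547 genes in trained pools, 1308 higher (4.78%) and 1239 lower (4.53%), and for 3649 in control pools, 1897 higher (6.93%) and 1752 lower (6.4%). The genes called in both numbered 1825, which is 71.7% of those in trained and 50.01% of those in control pools, and 3 of them had opposite directions. Over all genes the regional differences of trained and control pools, which share no arrays, correlated at r = 0.71, with an SD of 0.27 in trained and 0.29 in control pools.

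Control pools had the larger count in most settings. Trained pools had slightly more without HC control pool 2 and with the sex index. Without HC control pool 2, which leaves fewer control arrays, 2441 genes were called in trained and 2400 in control pools. A fit with the sex index gave 2537 in trained and 2472 in control pools, and batch 1 alone gave 1135 in trained and 1633 in control pools. The cell-type genes that separate the regions kept their place. The median regional difference was 0.51 in trained and 0.63 in control pools for hippocampal subfield genes, −0.40 and −0.27 for cortical layer genes, 1.00 and 0.90 for the choroid plexus, and 0.80 and 0.76 for myelin genes.

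A pair of transcripts outside the naming rule were taken up after their values were seen. 4732414G09Rik, a transcript without an assigned function, had the smallest p of all genes. It measured 3.72, 3.61 and 3.55 in HC trained pools, against 2.94, 2.82 and 3.01 in HC control pools, and 3.12, 2.91 and 2.87 in ACC trained pools, against 3.41, 3.49 and 3.17 in ACC control pools. The groups did not overlap in either region, and the difference was 1.09 (SE 0.14, adjusted p = 0.107 from limma).

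Mir1900, a microRNA gene, was the 1 gene that passed when an array was left out. Its mature form, from RefSeq on GRCm38.p6 at chr9:21032261-21032282 on the minus strand, is shown with the seed (bases 2 to 8), which pairs with targets, in capitals.
mmu-miR-1900: gGCCGCCCucucugguccuuca
The probe set measured 3.32, 3.75 and 3.64 in HC trained pools, against 2.86, 2.51 and 2.79 in HC control pools, and 2.24, 4.10 and 2.59 in ACC trained pools, against a mean of 3.78 ± 0.29 (SD, n = 3) in ACC control pools. ACC trained pool 2 stood with the ACC controls, far from the other ACC trained pools. The difference was 1.65 (SE 0.50, adjusted p = 0.368), and without ACC trained pool 2 it was 2.21 (adjusted p = 0.0423 from limma). Whole-transcript labelling is not designed for mature microRNAs, and the value may include the precursor.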

How the data were processed

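RNA pooled from HC or ACC of trained and control mice was labelled (WT Plus) and hybridised to Affymetrix Mouse Gene 2.0 ST arrays, 3 arrays for each of 4 groups. The authors corrected the background, normalized and summarised the probes by RMA (affy 1.62.0, R 3.6.0, with custom probe sets of 1 per Entrez gene). The deposited log2 expression values run from 0.457 to 13.3. The grouping of arrays at normalization, and any adjustment for batch, are not given in the sources used here. RMA includes quantile normalization, which can remove a shift of most genes at once, and the deposited arrays still differed in their medians (3.34 to 3.42). Columns were matched to samples by their labels, and 0 were left unused. Arrays have no sequencing depth, and 3 pools a group limit the precision.

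With limma 3.58.1 in R 4.3.3 a model of 4 group means, with no covariate and no filter, was fitted by lmFit to 27381 genes and moderated by eBayes. The region by training contrast, its parts and the regional differences were tested, and the Benjamini-Hochberg adjustment took in every gene. The procedure was tested only on simulated data with independent noise for each gene and array, without batches or shared mice. Symbols came from the platform annotation, with 26794 genes of 1 symbol, and the 587 others were counted but not named.

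Named genes were, in each direction, the 12 largest differences at an adjusted p under 0.05 or, with fewer, at an unadjusted p under 0.01, the 5 smallest p, and the 5 with the highest smaller t among genes past 2 in opposite directions in HC and ACC. They were taken from 13214 genes with an established symbol and a mean above the background level (95th percentile of odorant and vomeronasal receptors); predicted genes, receptor genes, immune receptor segments and small RNAs were left out. The 3 members of each list with the smallest p, all sex-linked genes and the study's candidates were added. Genes of a list that are named outside this rule, such as Col15a1, Col17a1, Col1a1, Col1a2, Col3a1, H2bc15, H4c9, H3c8, H2bc12, H3c1, H4c8, Pcdhga6, Pcdhb15, Pcdhb19, Pcdhgc5, Rplp1, Cox6c, Foxj1, H2-K1, Mx1, Fos, Egr1, Npas4 and Ifi27, and 4732414G09Rik and Mir1900, were chosen after their values were seen. The question, the lists and the rule were set with earlier results of these data known. Other settings were batch or pool number as a block, batch 1 alone, 2 filters on level, quantile normalization, array weights, median centring, eBayes with trend and robust options, a sex index, a t of 2.5, and each array left out. Impdh2 is not analysed here. Promoter and microRNA sequences are from RefSeq (GRCm38.p6).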

Additional observations from a re-analysis of the deposited data

How the results depend on the processing

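No gene reached an adjusted p under 0.05 in any setting with all 12 arrays or with batch 1 alone, nor with 11 arrays in 11 of the 12 choices. Without ACC trained pool 2 the count was 1 (Mir1900, 2.21), so that it ran from 0 to 1 with an array left out, and 2427 genes had an unadjusted p under 0.05 in the full fit. Leaving out an array in turn gave 2046 to 2530 genes at an unadjusted p under 0.05 (1176 to 1444 positive and 847 to 1162 negative) and 518 to 700 at an unadjusted p under 0.01. It gave 148 to 197 genes with a t above 2 in HC and below −2 in ACC, and 78 to 140 of the reverse. The regional difference was called for 1858 to 2560 genes in trained pools (lowest without HC trained pool 1) and 2400 to 3635 in control pools (lowest without HC control pool 2), and in batch 1 alone for 1135 in trained and 1633 in control pools.

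With the genes above background alone there were 1451 at an unadjusted p under 0.05, 703 of them positive, 405 at an unadjusted p under 0.01 and 94 with a t above 2 in HC and below −2 in ACC. With the genes at or above the median level alone these were 1215, 499, 342 and 62. Fewer genes were then tested. Median centring gave 841 positive and 1927 negative genes and 89 and 212 with opposite t, as it takes the difference of the array medians from each gene. At a t of 2.5 the opposite genes numbered 58 and 24.

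Arrays with the same pool number were compared by their deviations from their group means. These correlated at −0.10 to 0.03 for pool 1, −0.12 to 0.04 for pool 2 and −0.27 to −0.18 for pool 3. With 3 pools a group, such values cannot show whether pools of the same number held RNA of the same mice. With the pool number as a replicate block 2067 genes had an unadjusted p under 0.05 (1198 positive and 869 negative) and 0 passed the adjusted threshold. The regional difference was then called for 2133 genes in trained and 2936 in control pools, within 1.5 times the counts without the block.

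Some values changed sign, most of them close to 0, but also those of Uty, Xist and Clic6. In batch 1 alone these were Hsp90aa1 (0.0395), Ywhaz (0.0150), Nfkb2 (0.102) and Card6 (0.208). Ywhaz also did after quantile normalization (0.0108), and Foxj1 (−0.00844) and Col3a1 (−0.00722) did with median centring. Col3a1 did so with array weights (−0.00628) and with the sex index (−0.00182). Uty (0.0858) and Xist (−0.203) changed sign with the sex index, which holds their own values. With an array left out, Clic6 ran from −0.642 to 0.0172, Irf8 from −0.0563 to 0.248, Ywhaz from −0.0919 to 0.0272, Nfkb2 from −0.136 to 0.0898, Card6 from −0.149 to 0.190, Col1a2 from −0.00155 to 0.135, Col3a1 from −0.120 to 0.245, Foxj1 from −0.0620 to 0.177 and Fos from −0.0982 to 0.226. Of 3489 values of 162 named genes under these alternatives, 3452 kept their direction and their side of the adjusted threshold, 36 changed sign and 1 (Mir1900) passed the threshold.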

Other observations

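The zinc finger genes with a symbol of Zfp and a number, most of them DNA-binding regulators of which many carry a KRAB repressor domain, were counted after Zfp811, Zfp946 and Zfp617 had appeared among the largest negative differences, so the count supports nothing by itself. Of 376 such genes, 9 were positive and 33 negative (8.78%) at an unadjusted p under 0.05, where 3.83% of all genes and 4.24% of the genes above background were negative. Their median region by training difference was −0.06, against −0.004 over all genes and −0.03 over genes above background. It was −0.10 in batch 1 and −0.004 in batch 2, and −0.07 to −0.03 with an array left out. Many of these genes are close copies that lie side by side, and shared probes would move them together, which was not tested.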
